A study of Homo sapiens with 12 samples.

Results

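The genes described here are 50 human cytochrome P450s and drug-conjugating enzymes, taken by symbol from the 23583 features of a gene count table, and all 50 had a row in it. By role they comprise 12 P450s of drug and xenobiotic oxidation, 7 P450s of fatty acid and eicosanoid oxidation, 8 P450s of sterol, bile acid and vitamin metabolism, 5 UDP-glucuronosyltransferases, 5 sulfotransferases, 6 glutathione transferases, 4 other enzymes (the epoxide hydrolase EPHX1, the P450 reductase POR, the aldehyde oxidase AOX1 and the methyltransferase NNMT) and 3 alcohol dehydrogenases. P450s are haem enzymes of the endoplasmic reticulum or mitochondria that insert oxygen into drugs, steroids, fatty acids and vitamins, and POR passes electrons to those of the endoplasmic reticulum. The products are often joined to glucuronic acid, sulfate or glutathione by transferases, which makes them easier to excrete. Hepatocytes carry most of this work in the body, and liver tumours and tumour lines keep it to very different degrees.

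Expression was measured by RNA sequencing in HCCLM3 and Huh7, established human hepatocellular carcinoma lines. Each line received either si-circASH2, an siRNA directed at the circular RNA circASH2, or the control siRNA si-NC, and the study asked what silencing circASH2 does to gene expression in the context of metastasis. The 4 groups were HCCLM3 with si-circASH2, HCCLM3 with si-NC, Huh7 with si-circASH2 and Huh7 with si-NC, with 3 libraries each, 12 in all, and no other agent or genotype is labelled. The libraries of a group are numbered, but whether they are separate cultures or transfections is not labelled. The spread that each p-value is set against is that among numbered libraries, and it may be technical.

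Total counts per library lay between 29006781 and 30858895. A level of 3 counts was worth between 0.0981 and 0.105 CPM (counts scaled to library size by TMM) in 1 library, and between 0.0330 and 0.0338 CPM over the 3 libraries of a group. circASH2 itself is not separated from its host gene in gene counts, so these data do not check the siRNA labels. The host gene ASH2L averaged 27.5 ± 0.969 CPM in HCCLM3 with si-circASH2 and 32.4 ± 1.59 CPM with si-NC (SD, n = 3 each), and 66.99 ± 1.33 CPM in Huh7 with si-circASH2 and 76.5 ± 3.21 CPM with si-NC. Of 9 hepatocyte markers 5 exceeded 1 CPM in HCCLM3, with a sum of between 152 and 164 CPM per library, and all 9 did in Huh7, with a sum between 26651 and 28703 CPM. Albumin averaged 3.24 ± 1.06 CPM in HCCLM3 with si-NC and 9866 ± 268 CPM in Huh7 with si-NC, and SERPINA1 had 2 counts over the 3 HCCLM3 si-NC libraries, so these secreted proteins of hepatocytes were low or near 0 in HCCLM3. Among markers of other cells, the T and B cell genes CD3E and MS4A1 were at 0 in all 12 libraries. The fibroblast list summed to between 49.5 and 53.9 CPM in HCCLM3 with si-circASH2 and between 35.9 and 38.4 CPM with si-NC, and to between 59.9 and 61.1 CPM in Huh7 with si-circASH2 and between 37.9 and 43.3 CPM with si-NC. The fibroblast genes COL1A2 and PDGFRB were at 0 in HCCLM3 with si-NC. Of the 7 fibroblast genes, 4 were higher and 0 lower in Huh7 with si-circASH2 (edgeR adjusted p under 0.05). In HCCLM3 1 was higher and 0 lower. Of all features tested, 16.3% were higher in Huh7 and 15.1% in HCCLM3. The leukocyte list summed to between 171 and 208 CPM in HCCLM3 with si-circASH2 and between 143 and 165 CPM with si-NC, and to between 337 and 365 CPM in Huh7 with si-circASH2 and between 383 and 419 CPM with si-NC, while the endothelial list stayed under 28 CPM in every library. Of the 7 leukocyte genes, 1 exceeded 1 CPM in both HCCLM3 groups and 3 did in both Huh7 groups. The part of these marker differences in the results was not tested. In bulk libraries, fewer cells that express a gene and less RNA of it per cell cannot be told apart.

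After filtering on low counts (at least 10 counts in enough libraries for a group), 45 of the 50 genes entered the fit. The 5 that did not are given by raw counts per library. CYP3A4, the main drug oxidase of adult liver, had 4, 3 and 4 counts in HCCLM3 with si-circASH2, 4, 6 and 1 with si-NC, 4, 11 and 0 in Huh7 with si-circASH2 and 3, 6 and 0 with si-NC. CYP7A1, which starts bile acid synthesis, had 4 counts in 1 HCCLM3 si-circASH2 library and 0 in the other 11. These 2 enzymes, which hepatocytes are known for, were thus at or near 0 in both lines. CYP26A1, which degrades retinoic acid, was at 0 in all 6 HCCLM3 libraries, with 0, 4 and 8 counts in Huh7 with si-circASH2 and 2, 4 and 11 with si-NC. SULT2B1, a cholesterol sulfotransferase, had 5, 9 and 16 counts in HCCLM3 with si-circASH2, 6, 5 and 19 with si-NC and between 0 and 4 counts in Huh7. ADH1A had 2 counts in 1 of the 6 HCCLM3 libraries, 0, 8 and 0 counts in Huh7 with si-circASH2 and 8, 11 and 9 with si-NC.

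With si-NC the lines carried different sets of these enzymes. In HCCLM3 against Huh7, 41 of the 45 genes tested passed the threshold (edgeR adjusted p under 0.05), 15 of them higher and 26 lower in HCCLM3. Of all 16946 features tested 85.2% passed, 41.6% higher and 43.6% lower, so a call in this comparison was the rule across the table. The median absolute log2 fold change was 2.62 for the 45 genes and 0.96 for all features tested, and the median log2 fold change was -1.13 for the 45 genes and -0.04 for all features. The genes were chosen with earlier results of these data known, so these medians describe the chosen genes and test nothing. Levels in FPKM (fragments scaled to transcript length and library size by the authors) reached at least 1 for 23 of the 50 genes in HCCLM3 with si-NC and for 29 in Huh7 with si-NC. At least 10 FPKM were reached by 13 genes in HCCLM3 and 14 in Huh7, and 9 were at 0 in HCCLM3 against 1 in Huh7. The order per length differed as well. EPHX1 led in HCCLM3 at 138 ± 9.23 FPKM, followed by POR at 68.99, SULT1C2 at 62.5 and GSTO1 at 60.7 FPKM, with SULT1C2 and GSTO1 close to each other. GSTO1 led in Huh7 at 107 ± 2.61 FPKM, followed by EPHX1 at 46.04, SULT2A1 at 42.6, POR at 40.6 and UGT2B4 at 38.8 FPKM, with SULT2A1, POR and UGT2B4 close together.

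**Figure D1:**
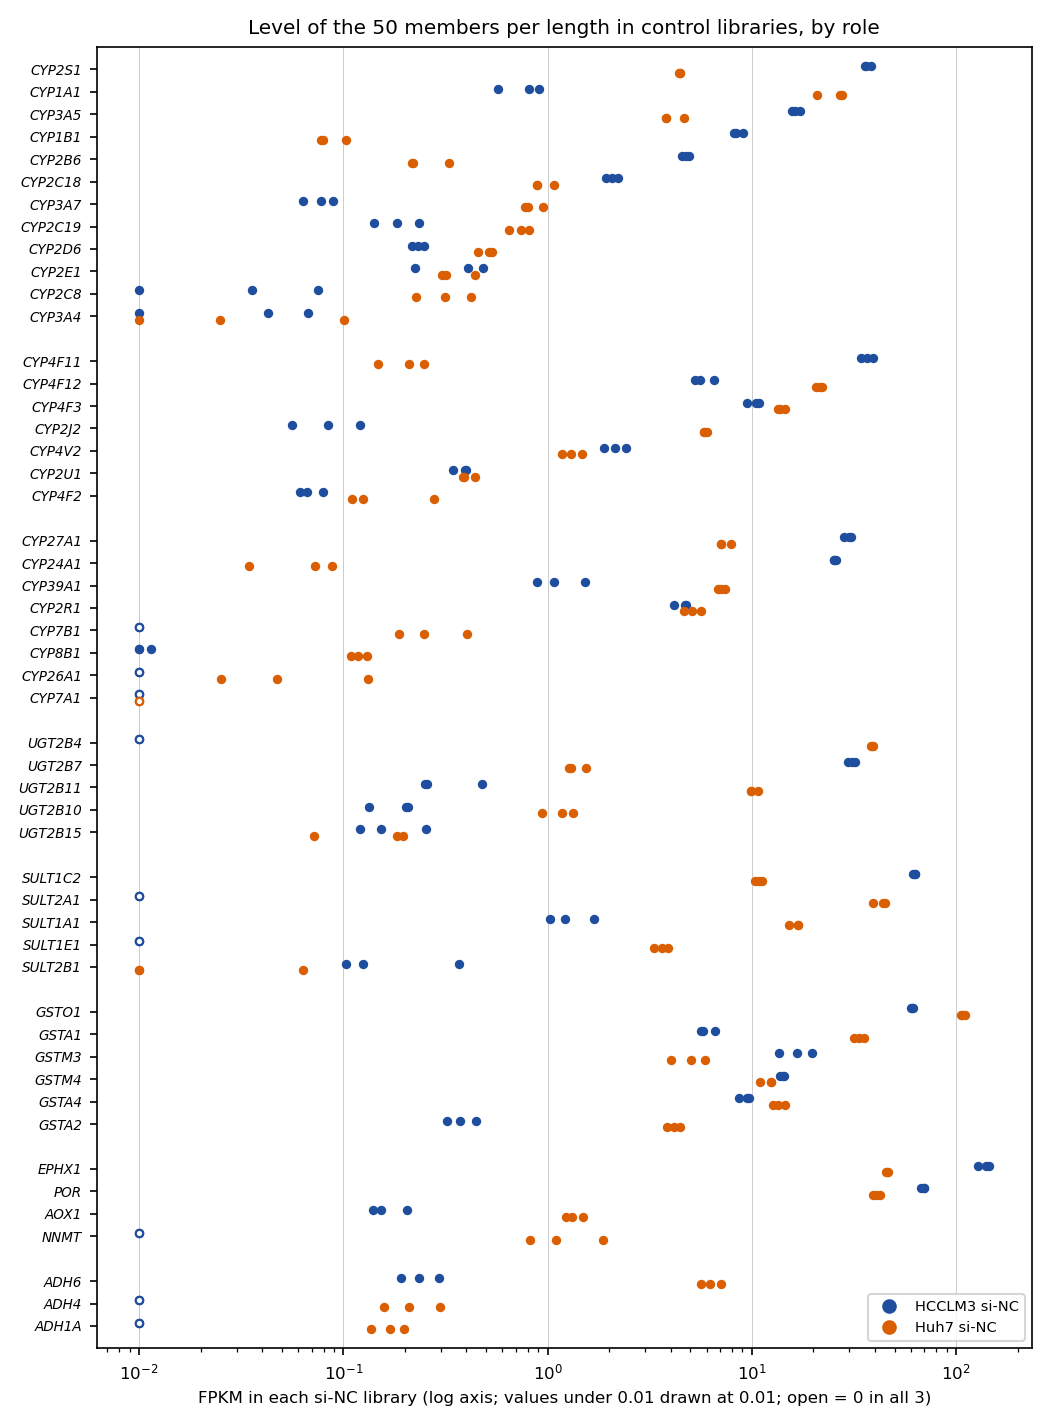
FPKM of each of the 50 genes in the 3 si-NC libraries of HCCLM3 (blue) and of Huh7 (orange), by role, on a log axis; values under 0.01 are drawn at 0.01 and open circles mark genes at 0 in all 3 libraries of that line. EPHX1, POR and SULT1C2 are at the right in HCCLM3, and SULT2A1 and UGT2B4 are at 0 in HCCLM3 but near 40 FPKM in Huh7.

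Several conjugating enzymes of steroids and bile acids had reads in Huh7 and none in HCCLM3 with si-NC. UGT2B4, which conjugates bile acids (chr4:69480165-69526014), had 0 counts in all 6 HCCLM3 libraries and 90.1, 89.96 and 90.7 CPM in Huh7 with si-NC. SULT2A1, which sulfates bile acids and dehydroepiandrosterone (chr19:47870466-47886397), had 0 counts in HCCLM3 with si-NC and 100.1, 99.6 and 87.4 CPM in Huh7 with si-NC. Taking 3 counts over the HCCLM3 group as the limit, UGT2B4 was at least 2673-fold lower and SULT2A1 at least 2835-fold lower in HCCLM3. SULT1E1, the estrogen sulfotransferase (chr4:69841212-69860152), had 0 counts in HCCLM3 and 7.28, 7.95 and 6.66 CPM in Huh7 with si-NC, at least 216-fold lower in HCCLM3. NNMT, which methylates nicotinamide, had 0 counts in HCCLM3 and 1.57, 2.24 and 3.54 CPM in Huh7 with si-NC, at least 72.7-fold lower. Each of these 4 genes separated the lines completely.

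Other genes had the opposite pattern. CYP24A1, which inactivates hormonal vitamin D (chr20:54153449-54173973), had 92.2, 93.2 and 91.5 CPM in HCCLM3 with si-NC and 0.295, 0.134 and 0.328 CPM in Huh7 with si-NC (log2 fold change 8.49 ± 0.11 (SE), edgeR adjusted p = 9.3e-27). CYP4F11, an oxidase of long-chain fatty acids and vitamin K, had 121, 116 and 110.3 CPM in HCCLM3 and 0.755, 0.568 and 0.853 CPM in Huh7 (log2 fold change 7.31 ± 0.10 (SE), edgeR adjusted p = 2.94e-26). CYP1B1, which oxidises estradiol and polycyclic hydrocarbons, had 48.7, 49.1 and 53.01 CPM in HCCLM3 and 0.459, 0.501 and 0.623 CPM in Huh7 (log2 fold change 6.56 ± 0.11 (SE), edgeR adjusted p = 9.92e-25). All 3 genes were under 1 CPM in every Huh7 si-NC library and far above it in every HCCLM3 si-NC library. CYP2B6, an oxidase of cyclophosphamide and efavirenz, was likewise higher in HCCLM3, at 15.1, 15.4 and 16.97 CPM against 0.853, 0.735 and 0.754 CPM in Huh7 (log2 fold change 4.33 ± 0.15 (SE), edgeR adjusted p = 3.1e-18).

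CYP1A1, which oxidises polycyclic aromatic hydrocarbons, had the highest level per length of the P450s among the 50 genes in Huh7 with si-NC (25.1 FPKM) and had 0.761 FPKM in HCCLM3 with si-NC. Its counts gave 1.95, 1.72 and 2.68 CPM in HCCLM3 and 77.3, 59.6 and 77.3 CPM in Huh7 (log2 fold change -5.07 ± 0.17 (SE), edgeR adjusted p = 1.43e-10), the reverse of its relative CYP1B1. CYP2J2, which forms epoxides of arachidonic acid, had 0.202, 0.140 and 0.262 CPM in HCCLM3 and 12.9, 12.6 and 12.4 CPM in Huh7 (log2 fold change -5.93 ± 0.21 (SE), edgeR adjusted p = 3.96e-18). UGT2B11 had 0.606, 1.16 and 0.621 CPM in HCCLM3 and 25.03, 23.5 and 23.4 CPM in Huh7 (log2 fold change -4.92 ± 0.13 (SE), edgeR adjusted p = 1.96e-20). ADH6, an alcohol dehydrogenase, had 0.706, 1.02 and 0.687 CPM in HCCLM3 and 20.04, 22.8 and 19.9 CPM in Huh7 (log2 fold change -4.70 ± 0.15 (SE), edgeR adjusted p = 3.65e-19). All 4 genes were low in every HCCLM3 library, with no overlap between the lines. Of the other genes called, ADH4 and CYP7B1 had 0 counts in HCCLM3 with si-NC and CYP8B1 had 2. The 26 genes left ranged in log2 fold change from -3.67 for SULT1A1 to 4.10 for UGT2B7. The 4 genes that did not pass were CYP2E1, CYP2R1, CYP2U1 and UGT2B15. The call of CYP4F2 (adjusted p = 0.0329) was lost when Huh7 si-NC library 3 (adjusted p = 0.254) or any 1 HCCLM3 si-NC library was left out (0.0534 to 0.0875), and that of GSTM4 (0.0118) without Huh7 si-NC library 1 (0.0919).

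In HCCLM3 with si-circASH2, 22 of the 45 genes passed the threshold against si-NC, 11 higher and 11 lower, where 30.6% of all features tested passed, 15.1% higher and 15.5% lower. In Huh7, 14 of 45 passed, 13 higher and 1 lower, where 31.4% of all features passed, 16.3% higher and 15.1% lower. The share called was 48.9% of the 45 genes in HCCLM3 and 31.1% in Huh7, and the Huh7 share is that of the table as a whole. No test of the list was made. At an unadjusted edgeR p under 0.05 the calls would gain SULT1C2 (higher) and GSTA4 (lower) in HCCLM3 and CYP2S1 and SULT2A1 (both lower) in Huh7 and no other gene of the 45, and of these DESeq2 called SULT2A1. Every count of 0 by role is to be read beside these 4 genes. Median log2 fold changes were -0.07 over the 39 genes with a fold change in HCCLM3 (all features 0.00) and -0.02 over the 45 genes in Huh7 (all features 0.02). Among features called, the median absolute log2 fold change was 0.46 for these genes and 0.31 for all features in HCCLM3, and 0.52 and 0.30 in Huh7. Counted against both lines at once, 5 genes were higher in both (CYP1A1, CYP1B1, CYP24A1, GSTA2 and GSTM3), CYP4F3 was lower in both, and CYP3A5 and CYP4F11 were lower in HCCLM3 and higher in Huh7. Some of these calls did not hold under every alternative run. They were those of CYP1B1, CYP4F11 and GSTM3 in Huh7 and of CYP4F11, CYP24A1 and GSTM3 in HCCLM3. The share of all features called in both lines was not counted, so the joint counts only describe the 45 genes. The difference between the effects (HCCLM3 minus Huh7, the interaction) passed for 15 of 45 genes (33.3%), 6 higher and 9 lower, where 20.9% of all features passed, 9.6% higher and 11.3% lower. With 3 libraries against 3, an exact two-sided permutation test of 1 gene cannot go below p = 0.1 (20 arrangements), so all calls rest on the fit across the table.

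**Figure D2:**
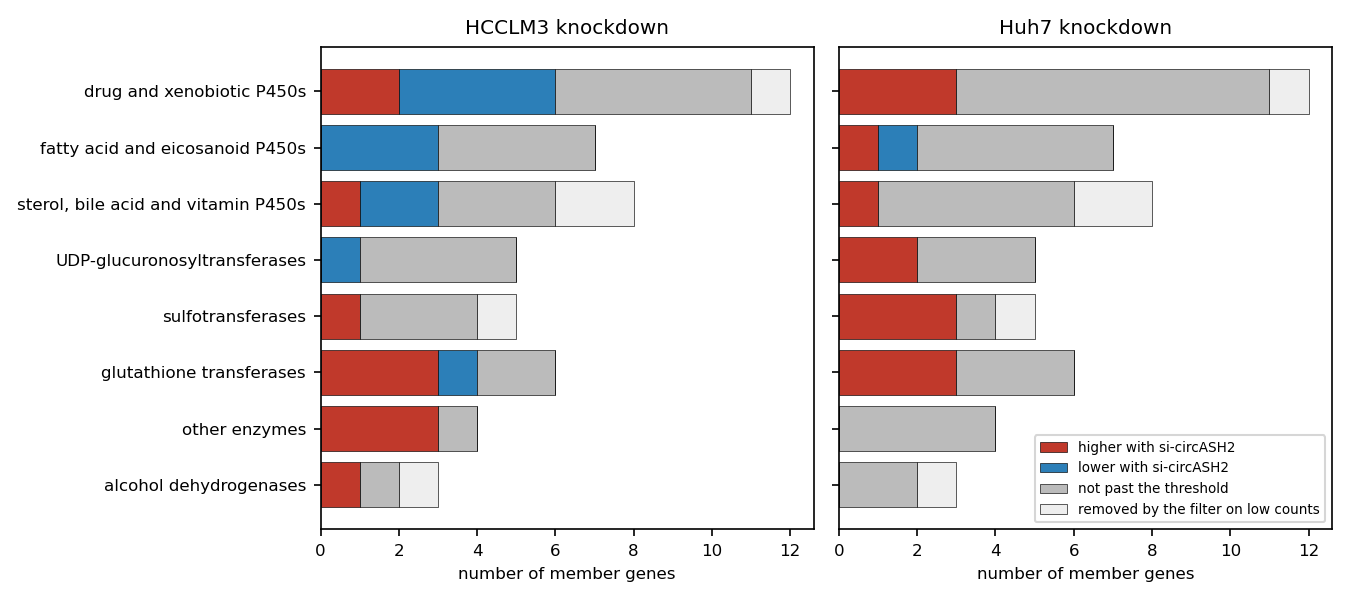
Number of genes by role and by result of the edgeR test of si-circASH2 against si-NC, for HCCLM3 (left) and Huh7 (right). In HCCLM3 the drug, fatty acid and sterol P450s (11, 7 and 6 of the 45 genes tested) hold 9 of the 11 lower calls. In Huh7 the glucuronosyl-, sulfo- and glutathione transferases (5, 4 and 6 of the 45) hold 8 of the 13 higher calls. Of all features tested, 15.5% were lower in HCCLM3 and 16.3% higher in Huh7, and no role was tested as a set.

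Among the drug and xenobiotic P450s, 2 of 11 tested were higher and 4 lower in HCCLM3 with si-circASH2, and 3 were higher and 0 lower in Huh7. The higher ones in both lines were the CYP1 pair. CYP1A1 had 4.98, 4.68 and 5.34 CPM in HCCLM3 with si-circASH2 and 1.95, 1.72 and 2.68 CPM with si-NC (log2 fold change 1.23 ± 0.25 (SE), edgeR adjusted p = 0.00332). In Huh7 CYP1A1 had 115, 93.3 and 108 CPM with si-circASH2 and 77.3, 59.6 and 77.3 CPM with si-NC (log2 fold change 0.56 ± 0.11 (SE), edgeR adjusted p = 0.00274). Every si-circASH2 library exceeded every si-NC library in its line. Lack of overlap was part of the rule that chose knockdown genes for values by library, so it adds no support here or below. The share of all features without overlap was not counted. For CYP1A1, replicate 2 was the lowest of each of the 4 groups. The difference between these effects was 0.67 ± 0.27 (SE), edgeR adjusted p = 0.121. It passed without Huh7 si-NC library 2 (adjusted p = 0.00435), with DESeq2 (0.0231) and with the replicate number as a block in edgeR (0.00123).

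CYP1A1 (chr15:74719542-74725610, GRCh38) is the textbook target of the aryl hydrocarbon receptor AHR, which binds DNA with ARNT at sites with the core GCGTG. Its promoter is shown because the gene rose in both lines and the window holds a match to that core. Whether AHR has a part in the change was not tested. The window (RefSeq, GRCh38.p14, minus strand, chr15:74725479-74725778) runs from 250 bases before the start to 50 after it, written 5′ to 3′ along the gene, with the core in capitals.
CYP1A1: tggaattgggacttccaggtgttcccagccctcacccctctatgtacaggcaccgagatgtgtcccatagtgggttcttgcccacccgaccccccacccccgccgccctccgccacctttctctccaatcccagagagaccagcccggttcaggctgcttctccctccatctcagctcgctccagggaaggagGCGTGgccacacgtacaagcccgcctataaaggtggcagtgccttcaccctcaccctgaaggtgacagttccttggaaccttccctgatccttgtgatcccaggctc
The core lies at position -57 and a TATAAA box at -32 from the start. The 2 motifs do not overlap. GCGTG on either strand was found in 36.4% of all 34796 RefSeq promoter windows of this length, and in 9 of the 44 windows of the 38 genes of this set that have one. TATAAA was found in 11.6% of all windows and in 15 of the 44. A match describes the letters and is not a measured binding site.

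CYP1B1 (chr2:38066973-38109902) had 72.5, 65.6 and 65.5 CPM in HCCLM3 with si-circASH2 and 48.7, 49.1 and 53.01 CPM with si-NC (log2 fold change 0.43 ± 0.06 (SE), edgeR adjusted p = 2.87e-06). Its low level in Huh7 was 0.948, 1.06 and 0.934 CPM with si-circASH2 and 0.459, 0.501 and 0.623 CPM with si-NC (log2 fold change 0.89 ± 0.22 (SE), edgeR adjusted p = 0.00270). The groups did not overlap in either line, although the call in Huh7 was lost with limma on log2(FPKM + 1), at adjusted p = 0.262. The difference between the effects on CYP1B1 was -0.46 ± 0.23 (SE), edgeR adjusted p = 0.200, and with limma on log2(FPKM + 1) it had the opposite sign and passed (0.30, adjusted p = 0.0194). In Huh7 CYP1B1 averaged 0.159 FPKM with si-circASH2 and 0.0868 FPKM with si-NC, well under the added 1. In that limma run its log2 fold change in Huh7 was 0.09. AHR itself averaged 136 ± 8.12 CPM in HCCLM3 with si-circASH2 and 113 ± 5.36 CPM with si-NC (log2 fold change 0.27 ± 0.05 (SE), edgeR adjusted p = 0.000158), and 168 ± 9.65 CPM in Huh7 with si-circASH2 and 129.5 ± 3.42 CPM with si-NC (log2 fold change 0.37 ± 0.05 (SE), edgeR adjusted p = 2.04e-06; SD, n = 3 each).

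CYP3A5 moved in opposite directions in the lines. It oxidises many drugs and lies beside CYP3A7 and CYP3A4 on chromosome 7 (chr7:99648194-99680026). It had 34.6, 34.9 and 33.01 CPM in HCCLM3 with si-circASH2 and 40.03, 44.3 and 41.99 CPM with si-NC (log2 fold change -0.30 ± 0.06 (SE), edgeR adjusted p = 0.000563). In Huh7 CYP3A5 had 14.7, 14.4 and 13.9 CPM with si-circASH2 and 10.7, 10.4 and 12.1 CPM with si-NC (log2 fold change 0.37 ± 0.07 (SE), edgeR adjusted p = 0.000416). All si-circASH2 libraries were below si-NC in HCCLM3 and above si-NC in Huh7, and the difference between the effects passed at -0.67 ± 0.10 (SE), edgeR adjusted p = 1.66e-05.

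CYP2B6 (chr19:40991250-41018398) fell in HCCLM3. It had 8.92, 9.02 and 8.23 CPM with si-circASH2 and 15.1, 15.4 and 16.97 CPM with si-NC (log2 fold change -0.86 ± 0.11 (SE), edgeR adjusted p = 3.01e-06), with no overlap. In Huh7 CYP2B6 had 0.881, 0.563 and 0.801 CPM with si-circASH2 and 0.853, 0.735 and 0.754 CPM with si-NC, which overlapped (log2 fold change -0.06 ± 0.22 (SE), edgeR adjusted p = 0.899). The effects on CYP2B6 differed between the lines by -0.80 ± 0.25 (SE), edgeR adjusted p = 0.0231. That call was lost without Huh7 si-NC library 2 (adjusted p = 0.0551), Huh7 si-circASH2 library 1 (0.0983) or Huh7 si-circASH2 library 3 (0.0658).

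The other drug P450s called in HCCLM3 were lower with si-circASH2. CYP2S1, a P450 of epithelia outside the liver, averaged 90.8 ± 7.37 CPM with si-circASH2 and 115 ± 2.94 CPM with si-NC (log2 fold change -0.34 ± 0.05 (SE), edgeR adjusted p = 8.27e-06; SD, n = 3 each), and it had 12.3 ± 0.326 CPM in Huh7 with si-circASH2 and 13.9 ± 0.209 CPM with si-NC (log2 fold change -0.17 ± 0.07 (SE), edgeR adjusted p = 0.0586), which passed with limma on log2(FPKM + 1) (adjusted p = 0.0378). CYP2E1, which oxidises ethanol and paracetamol, was called on few reads, with 7, 10 and 10 counts in HCCLM3 with si-circASH2 and 23, 15 and 32 with si-NC (log2 fold change -1.37 ± 0.40 (SE), edgeR adjusted p = 0.0114). That call was lost without HCCLM3 si-NC library 3 (adjusted p = 0.0818) or si-circASH2 library 1 (0.0519). CYP2C8, CYP2C18, CYP2C19, CYP2D6 and CYP3A7 did not pass in either line. CYP2C8, which oxidises paclitaxel, had 5, 6 and 8 counts in HCCLM3 with si-circASH2 and 3, 1 and 6 with si-NC, and between 13 and 31 in Huh7. CYP2C19 shared 83.2%, CYP3A7 75.3%, CYP2D6 40.7% and CYP2C18 37.3% of the 50-base stretches of a transcript with other genes, so their counts are uncertain. Most were shared with the GENCODE entries AL583836.1 (CYP2C19 and CYP2C18), CYP3A7-CYP3A51P (CYP3A7) and CYP2D7 (CYP2D6). Whether the authors' annotation holds these entries is not known. Shared stretches also made up 32.0% of CYP26A1 (most with AL358613.3), 31.7% of UGT2B10, 27.8% of UGT2B15, 23.6% of SULT1E1 (most with AC108941.2) and 17.6% of CYP4F2. They were 14.3% of ADH1A, 11.7% of GSTM4, 9.99% of CYP2B6 and 9.88% of CYP4F3. The handling of reads that match several genes is not stated in the sources used here.

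Of the 7 fatty acid and eicosanoid P450s, 0 were higher and 3 lower in HCCLM3 with si-circASH2, and 1 was higher and 1 lower in Huh7. The 3 lower ones were the CYP4F genes CYP4F3, CYP4F11 and CYP4F12, which lie with CYP4F2 in 1 stretch of chromosome 19 between the start of CYP4F3 (chr19:15640897-15662825) and the end of CYP4F11 (chr19:15912367-15934867). CYP4F3, the hydroxylase of leukotriene B4, had 36.1, 35.9 and 37.7 CPM in HCCLM3 with si-circASH2 and 48.6, 43.4 and 45.7 CPM with si-NC (log2 fold change -0.33 ± 0.06 (SE), edgeR adjusted p = 7.86e-05). In Huh7 CYP4F3 had 55.1, 53.5 and 61.8 CPM with si-circASH2 and 66.6, 66.8 and 68.6 CPM with si-NC (log2 fold change -0.25 ± 0.05 (SE), edgeR adjusted p = 0.000945). It was the only one of the 45 genes called lower in both lines, without overlap in either.

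CYP4F12 (chr19:15672757-15697174), which oxidises arachidonic acid and some antihistamines, had 8.61, 8.59 and 9.37 CPM in HCCLM3 with si-circASH2 and 11.6, 11.2 and 14.3 CPM with si-NC (log2 fold change -0.49 ± 0.09 (SE), edgeR adjusted p = 0.000245). In Huh7 its groups overlapped, at 46.9, 47.2 and 40.8 CPM with si-circASH2 and 46.1, 46.4 and 44.5 CPM with si-NC (log2 fold change -0.02 ± 0.07 (SE), edgeR adjusted p = 0.871). The difference between the effects passed at -0.46 ± 0.12 (SE), edgeR adjusted p = 0.00548, and missed the threshold with limma on log2(FPKM + 1) over all genes above 0 (adjusted p = 0.0569). CYP4F11 had 92.2, 88.01 and 91.4 CPM in HCCLM3 with si-circASH2 and 121, 116 and 110.3 CPM with si-NC (log2 fold change -0.35 ± 0.05 (SE), edgeR adjusted p = 1.86e-05), without overlap, a call that limma on log2(FPKM + 0.1) did not make (0.156). In Huh7 it was near 1 CPM, at 0.745, 1.19 and 1.37 CPM with si-circASH2 and 0.755, 0.568 and 0.853 CPM with si-NC, and the groups overlapped (log2 fold change 0.60 ± 0.22 (SE), edgeR adjusted p = 0.0398). The Huh7 call was lost without si-NC library 1 (adjusted p = 0.0727) or 2 (0.173) or si-circASH2 library 2 (0.121) or 3 (0.242), in a fit of Huh7 alone (0.165) and with limma on log2(FPKM + 1) (0.241), while the difference between the effects was -0.95 ± 0.23 (SE), edgeR adjusted p = 0.00348.

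CYP2J2, CYP2U1, CYP4V2 and CYP4F2 did not pass in either line. CYP2J2 had 0.407, 0.133 and 0.201 CPM in HCCLM3 with si-circASH2 and 0.202, 0.140 and 0.262 CPM with si-NC, and 12.5, 12.03 and 12.1 CPM in Huh7 with si-circASH2 and 12.9, 12.6 and 12.4 CPM with si-NC, so its large distance between the lines was seen in all 12 libraries. CYP4V2, a fatty acid hydroxylase, averaged 3.85 ± 0.641 CPM in HCCLM3 with si-circASH2 and 4.95 ± 0.578 CPM with si-NC, and 2.35 ± 0.675 CPM in Huh7 with si-circASH2 and 3.05 ± 0.363 CPM with si-NC (SD, n = 3 each), with log2 fold changes of -0.36 and -0.37. Without Huh7 si-circASH2 library 2 it passed in Huh7 (adjusted p = 0.0394). CYP4F2 had 4, 0 and 2 counts in HCCLM3 with si-circASH2 and 7, 5 and 6 with si-NC.

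Of the 6 sterol, bile acid and vitamin P450s tested, 1 was higher and 2 lower in HCCLM3 with si-circASH2, and 1 was higher and 0 lower in Huh7. CYP24A1 had 97.2, 106 and 106 CPM in HCCLM3 with si-circASH2 and 92.2, 93.2 and 91.5 CPM with si-NC (log2 fold change 0.16 ± 0.05 (SE), edgeR adjusted p = 0.0177). In Huh7 CYP24A1 had 2.00, 2.35 and 2.30 CPM with si-circASH2 and 0.295, 0.134 and 0.328 CPM with si-NC (log2 fold change 3.11 ± 0.22 (SE), edgeR adjusted p = 1.3e-10), a fitted 8.65-fold rise, the largest log2 fold change called among the 45 genes in Huh7. The groups did not overlap in either line, and Huh7 with si-circASH2 stayed far below HCCLM3 with si-NC. The HCCLM3 call was lost without si-NC library 1 (adjusted p = 0.0613) or 3 (0.0639), without si-circASH2 library 2 (0.0792) or 3 (0.0875), and with limma on log2(FPKM + 0.1) (0.335). The difference between the effects was -2.96 ± 0.23 (SE), edgeR adjusted p = 1.89e-09.

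CYP27A1, which oxidises the side chain of cholesterol in mitochondria (chr2:218781749-218815293), averaged 64.6 ± 2.68 CPM in HCCLM3 with si-circASH2 and 76.3 ± 2.16 CPM with si-NC (log2 fold change -0.24 ± 0.05 (SE), edgeR adjusted p = 0.000771; SD, n = 3 each). In Huh7 CYP27A1 averaged 18.6 ± 0.721 CPM with si-circASH2 and 18.96 ± 1.23 CPM with si-NC (log2 fold change -0.03 ± 0.06 (SE), edgeR adjusted p = 0.780). The difference on CYP27A1 (-0.21 ± 0.08 (SE), edgeR adjusted p = 0.0665) passed without Huh7 si-NC library 3 (0.0245) or HCCLM3 si-circASH2 library 3 (0.0494). CYP39A1, which hydroxylates 24-hydroxycholesterol, had 2.03, 2.06 and 1.88 CPM in HCCLM3 with si-circASH2 and 2.66, 3.82 and 2.22 CPM with si-NC (log2 fold change -0.54 ± 0.17 (SE), edgeR adjusted p = 0.0182). Its groups did not overlap, but si-NC library 2 stood above the others: without it the log2 fold change was -0.29 (adjusted p = 0.200), and the call was also lost without si-circASH2 library 3 (0.0625) and with limma on log2(FPKM + 1) (0.0616). In Huh7 CYP39A1 had 16.2, 18.4 and 15.2 CPM with si-circASH2 and 18.2, 17.7 and 16.8 CPM with si-NC, which overlapped, and the difference between the effects passed without HCCLM3 si-NC library 3 (-0.62, adjusted p = 0.0297).

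CYP2R1, the vitamin D 25-hydroxylase, did not pass in either line (in a fit of HCCLM3 alone it passed there, adjusted p = 0.0343), at 8.88 ± 1.04 CPM in HCCLM3 with si-circASH2 and 10.8 ± 0.927 CPM with si-NC, and 12.8, 7.75 and 13.8 CPM in Huh7 with si-circASH2 and 12.8, 10.99 and 11.8 CPM with si-NC. Its Huh7 si-circASH2 library 2 was the lowest of that line, and without it the difference between the effects passed at -0.44 (adjusted p = 0.0465). CYP7B1, an oxysterol hydroxylase, had 2 counts in 1 of 6 HCCLM3 libraries, with 32, 35 and 31 counts in Huh7 with si-circASH2 and 19, 15 and 31 with si-NC. CYP8B1, which sets the share of cholic acid among bile acids, had 20, 9 and 3 counts in Huh7 with si-circASH2 and 17, 15 and 18 with si-NC, and 2 counts in 1 HCCLM3 library. Neither passed, and both were too low in HCCLM3 for a fold change, though CYP7B1 passed in Huh7 with limma on log2(FPKM + 1) (adjusted p = 0.0389).

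**Figure D3:**
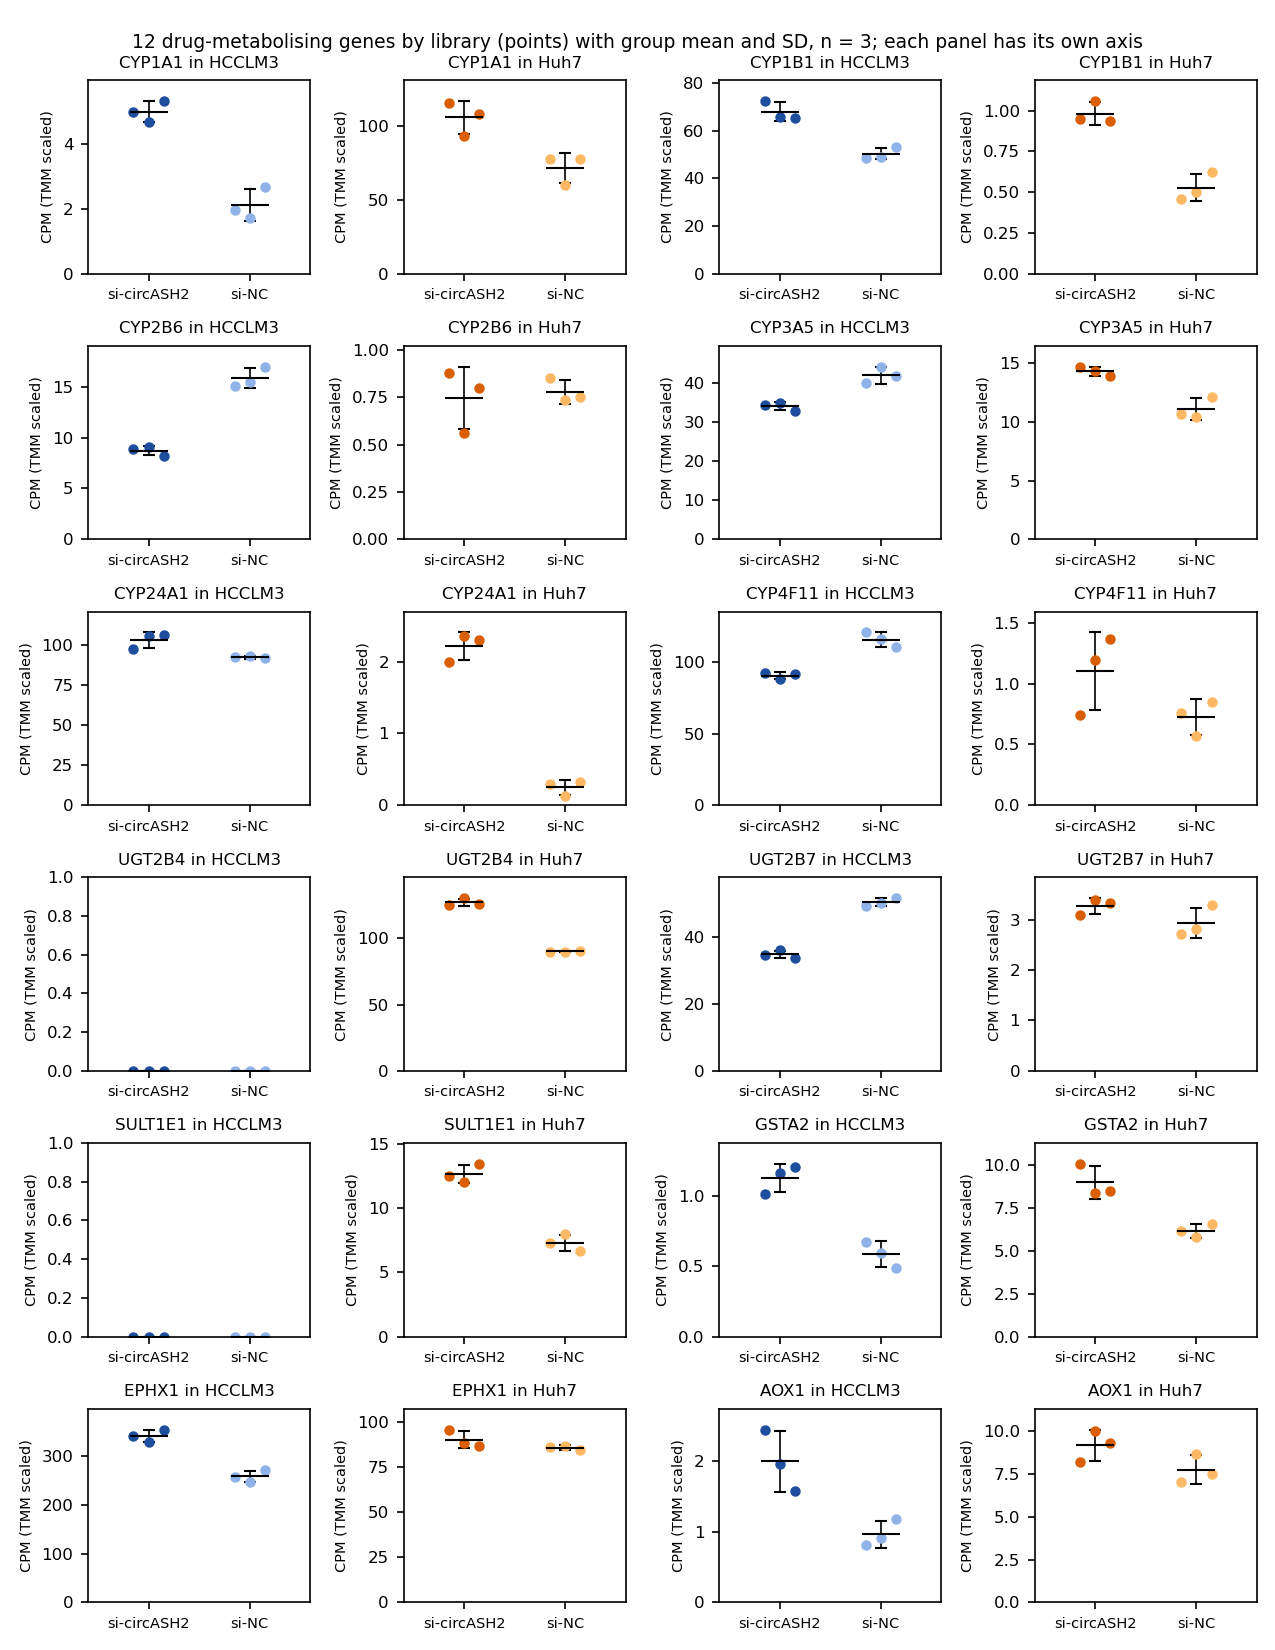
CPM (TMM scaled, linear axis from 0, own scale in each panel) of 12 genes in every library, si-circASH2 to the left of si-NC, with group mean and SD of 3 libraries; HCCLM3 panels are left of Huh7 panels. CYP1A1, CYP1B1 and GSTA2 are higher with si-circASH2 in both lines, CYP3A5 moves in opposite directions, and UGT2B4 and SULT1E1 are at 0 in HCCLM3.

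The UDP-glucuronosyltransferases belong to the UGT2B family, which sits in 1 cluster on chromosome 4. Of 5 tested, 0 were higher and 1 lower in HCCLM3 with si-circASH2, and 2 were higher and 0 lower in Huh7. UGT2B7, which glucuronidates morphine and bile acids (chr4:69051363-69112987), had 34.7, 35.9 and 33.6 CPM in HCCLM3 with si-circASH2 and 49.3, 50.2 and 51.6 CPM with si-NC (log2 fold change -0.54 ± 0.06 (SE), edgeR adjusted p = 2.22e-07). In Huh7 UGT2B7 had 3.08, 3.38 and 3.34 CPM with si-circASH2 and 2.72, 2.80 and 3.28 CPM with si-NC (log2 fold change 0.15 ± 0.11 (SE), edgeR adjusted p = 0.361). The HCCLM3 groups were far apart and the Huh7 groups overlapped, and the difference between the effects was -0.69 ± 0.12 (SE), edgeR adjusted p = 0.000266.

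UGT2B4 had 0 counts in all 6 HCCLM3 libraries, so its effect there has no fold. In Huh7 UGT2B4 had 125, 130.5 and 126 CPM with si-circASH2 and 90.1, 89.96 and 90.7 CPM with si-NC (log2 fold change 0.49 ± 0.04 (SE), edgeR adjusted p = 3.9e-08), and the si-NC libraries lay within 1 CPM of each other. UGT2B11 (chr4:69199951-69214731) had 0.610, 0.531 and 0.739 CPM in HCCLM3 with si-circASH2 and 0.606, 1.16 and 0.621 CPM with si-NC, which overlapped. In Huh7 UGT2B11 had 35.1, 34.7 and 33.8 CPM with si-circASH2 and 25.03, 23.5 and 23.4 CPM with si-NC (log2 fold change 0.53 ± 0.08 (SE), edgeR adjusted p = 2.86e-05). The genes that rose in Huh7 were the 2 of the 5 with the highest FPKM there with si-NC, UGT2B4 at 38.8 and UGT2B11 at 10.2 FPKM. The effects on UGT2B11 differed between the lines by -0.86 ± 0.26 (SE), edgeR adjusted p = 0.0209. That difference was lost without HCCLM3 si-NC library 2 (-0.50, adjusted p = 0.291), without HCCLM3 si-circASH2 library 2 (0.0814) and with limma on log2(FPKM + 0.1) (0.0550). UGT2B11 shared 40.9% of its 50-base stretches with other sequences such as UGT2B25P, and UGT2B4 3.17%. UGT2B10, a nicotine glucuronosyltransferase, and UGT2B15, which acts on androgens, did not pass in either line. UGT2B10 averaged 0.246 ± 0.119 CPM in HCCLM3 with si-circASH2 and 0.405 ± 0.0887 CPM with si-NC, and 3.28 ± 0.751 CPM in Huh7 with si-circASH2 and 2.52 ± 0.416 CPM with si-NC (SD, n = 3 each), and its difference between the lines passed without HCCLM3 si-circASH2 library 3 (-1.51, adjusted p = 0.0486). UGT2B15 had between 6 and 23 counts in every library.

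Of 4 sulfotransferases tested, 1 was higher and 0 lower in HCCLM3 with si-circASH2, on very few counts, and 3 were higher and 0 lower in Huh7. SULT1E1 had 0 counts in all 6 HCCLM3 libraries. In Huh7 SULT1E1 had 12.5, 12.1 and 13.4 CPM with si-circASH2 and 7.28, 7.95 and 6.66 CPM with si-NC (log2 fold change 0.79 ± 0.13 (SE), edgeR adjusted p = 9.88e-05), without overlap. SULT1A1, which sulfates phenols (chr16:28605196-28623625), had 1.49, 2.92 and 3.43 CPM in HCCLM3 with si-circASH2 and 1.65, 2.14 and 2.52 CPM with si-NC. The HCCLM3 groups overlapped, and without si-circASH2 library 1 the gene passed there (log2 fold change 0.59, adjusted p = 0.00655). In Huh7 SULT1A1 had 39.3, 38.7 and 37.7 CPM with si-circASH2 and 27.1, 25.6 and 27.9 CPM with si-NC (log2 fold change 0.52 ± 0.12 (SE), edgeR adjusted p = 0.00413), and the 3 si-circASH2 libraries were all above the si-NC libraries. In Huh7 the call of SULT1A1 was lost with limma on log2(FPKM + 0.1) (0.181). Of its 50-base stretches 24.7% are shared with other genes, most with SULT1A3.

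SULT1C2 (chr2:108288639-108309915), a sulfotransferase of phenols and hydroxyarylamines, had 200.3, 196 and 188 CPM in HCCLM3 with si-circASH2 and 178, 187 and 179 CPM with si-NC (log2 fold change 0.10 ± 0.04 (SE), edgeR adjusted p = 0.0646). In Huh7 SULT1C2 had 41.3, 44.8 and 46.9 CPM with si-circASH2 and 31.7, 30.8 and 31.2 CPM with si-NC (log2 fold change 0.51 ± 0.05 (SE), edgeR adjusted p = 2.42e-08). Libraries did not overlap in either line, the larger step was in Huh7, and the difference between the effects was -0.40 ± 0.06 (SE), edgeR adjusted p = 6.25e-05. In HCCLM3 the gene passed without si-circASH2 library 3 (adjusted p = 0.0481), with upper quartile scaling (0.0442), in a fit of HCCLM3 alone (0.0168) and with limma on log2(FPKM + 1) (0.0342).

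SULT2A1 had 4, 0 and 8 counts in HCCLM3 with si-circASH2 and 0, 0 and 0 with si-NC. The fit called both this rise (edgeR adjusted p = 0.0251, at least 3.98-fold against 3 counts over the group) and the difference between the lines (0.0283). Each call rests on 12 counts in 2 of 3 libraries. The HCCLM3 call was lost without any 1 of the HCCLM3 libraries except si-circASH2 library 2 (adjusted p between 0.0558 and 0.0854). The difference was lost without any 1 of the same 5 libraries or Huh7 si-circASH2 library 1 (between 0.0558 and 0.0921). In Huh7 SULT2A1, which had the highest FPKM of the 5 sulfotransferases among the 50 genes with si-NC, had 83.9, 86.9 and 82.6 CPM with si-circASH2 and 100.1, 99.6 and 87.4 CPM with si-NC (log2 fold change -0.18 ± 0.07 (SE), edgeR adjusted p = 0.0842). The 3 si-circASH2 libraries were all below the si-NC libraries. The gene passed in Huh7 without si-NC library 3 (adjusted p = 0.0194), with DESeq2 (0.0154), in a fit of Huh7 alone (0.00417) and with limma on log2(FPKM + 1) (0.0285).

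Of 6 glutathione transferases tested, 3 were higher and 1 lower in HCCLM3 with si-circASH2, and 3 were higher and 0 lower in Huh7. GSTA2 had 1.02, 1.16 and 1.21 CPM in HCCLM3 with si-circASH2 and 0.673, 0.595 and 0.491 CPM with si-NC (log2 fold change 0.94 ± 0.22 (SE), edgeR adjusted p = 0.00210). In Huh7 GSTA2 had 10.1, 8.38 and 8.47 CPM with si-circASH2 and 6.13, 5.78 and 6.56 CPM with si-NC (log2 fold change 0.54 ± 0.14 (SE), edgeR adjusted p = 0.00352). Every si-circASH2 library was above every si-NC library of its line. Its neighbour GSTA1 had 10.7, 10.4 and 11.2 CPM in HCCLM3 with si-circASH2 and 6.43, 6.72 and 7.59 CPM with si-NC (log2 fold change 0.63 ± 0.09 (SE), edgeR adjusted p = 7.6e-06). The GSTA1 groups in Huh7 overlapped, at 40.4, 35.1 and 35.8 CPM with si-circASH2 and 36.3, 41.1 and 38.4 CPM with si-NC (log2 fold change -0.06 ± 0.07 (SE), edgeR adjusted p = 0.586). The difference between the effects was 0.69 ± 0.11 (SE), edgeR adjusted p = 8.18e-05 for GSTA1 and 0.40 ± 0.26 (SE), edgeR adjusted p = 0.313 for GSTA2.

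GSTA1 (chr6:52791664-52803910) and GSTA2 (chr6:52750089-52763569) are close copies on the minus strand of chromosome 6, and both promoters are shown because both genes were called higher in HCCLM3 and GSTA2 also in Huh7 (whether the 2 genes' effects differed from each other was not tested). The windows (RefSeq, GRCh38.p14, minus strand, chr6:52803767-52804066 for GSTA1 and chr6:52763426-52763725 for GSTA2) run 5′ to 3′ from 250 bases before the start to 50 after it. Capitals mark the 12 of 300 bases at which they differ.
GSTA1: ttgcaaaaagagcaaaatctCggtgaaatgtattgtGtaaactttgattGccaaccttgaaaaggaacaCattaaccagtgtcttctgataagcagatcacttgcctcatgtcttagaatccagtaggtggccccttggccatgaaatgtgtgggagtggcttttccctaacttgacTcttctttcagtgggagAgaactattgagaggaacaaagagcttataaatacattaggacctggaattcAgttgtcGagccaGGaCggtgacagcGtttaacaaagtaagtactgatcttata
GSTA2: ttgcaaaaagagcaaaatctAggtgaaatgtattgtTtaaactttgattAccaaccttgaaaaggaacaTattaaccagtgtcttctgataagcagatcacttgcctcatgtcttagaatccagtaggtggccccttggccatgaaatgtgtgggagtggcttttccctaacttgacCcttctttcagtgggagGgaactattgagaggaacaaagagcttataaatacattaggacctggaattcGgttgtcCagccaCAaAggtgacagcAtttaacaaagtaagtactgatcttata
The other 288 bases (96.0%) are identical, and both hold a TATAAA box at position -30. Of the 50-base stretches of their transcripts, 28.9% of GSTA1 and 18.4% of GSTA2 are shared with other genes, most with each other, so reads of one may be counted for the other.

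GSTM3 (chr1:109733932-109741038), a mu-class transferase, had 64.6, 66.2 and 66.3 CPM in HCCLM3 with si-circASH2 and 54.3, 57.9 and 58.4 CPM with si-NC (log2 fold change 0.21 ± 0.05 (SE), edgeR adjusted p = 0.00341). In Huh7 GSTM3 had 19.3, 21.97 and 20.1 CPM with si-circASH2 and 17.3, 16.4 and 15.7 CPM with si-NC (log2 fold change 0.31 ± 0.06 (SE), edgeR adjusted p = 0.000438). Counts put every si-circASH2 library above every si-NC library, but the deposited FPKM did not: they averaged 15.7 ± 0.765 FPKM in HCCLM3 with si-circASH2 and 16.7 ± 3.03 FPKM with si-NC, and 5.37 ± 0.769 FPKM in Huh7 with si-circASH2 and 4.99 ± 0.944 FPKM with si-NC. The direction of GSTM3 in HCCLM3 thus turned with the unit, and limma on log2(FPKM + 1) called it in neither line (adjusted p = 0.810 in HCCLM3 and 0.679 in Huh7). GSTO1, an omega-class transferase that reduces dehydroascorbate, had 63.5, 63.3 and 62.4 CPM in HCCLM3 with si-circASH2 and 63.9, 63.2 and 61.5 CPM with si-NC, which overlapped. In Huh7 GSTO1 had 130.4, 133 and 129 CPM with si-circASH2 and 112, 116 and 114 CPM with si-NC (log2 fold change 0.20 ± 0.04 (SE), edgeR adjusted p = 0.000163), without overlap, and the difference between the effects was -0.19 ± 0.05 (SE), edgeR adjusted p = 0.0101. GSTM4 averaged 20.3 ± 0.700 CPM in HCCLM3 with si-circASH2 and 23.8 ± 0.707 CPM with si-NC (log2 fold change -0.24 ± 0.07 (SE), edgeR adjusted p = 0.0122; SD, n = 3 each), a call lost without si-NC library 2 (adjusted p = 0.0537) or si-circASH2 library 2 (0.0647). GSTA4, which detoxifies 4-hydroxynonenal, did not pass in either line, but passed in HCCLM3 without si-circASH2 library 3 (log2 fold change -0.34, adjusted p = 0.00949).

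EPHX1, POR and AOX1 rose in HCCLM3. Of the 4 other enzymes, 3 were higher and 0 lower in HCCLM3 with si-circASH2, and 0 were called in Huh7 by edgeR, 0 by DESeq2 as well. EPHX1, which hydrolyses epoxides formed by P450s (chr1:225810092-225845563), had 340.4, 329 and 354 CPM in HCCLM3 with si-circASH2 and 256, 247 and 271 CPM with si-NC (log2 fold change 0.40 ± 0.04 (SE), edgeR adjusted p = 7.07e-08). In Huh7 EPHX1 had 95.6, 87.98 and 86.5 CPM with si-circASH2 and 85.8, 86.8 and 84.2 CPM with si-NC (log2 fold change 0.07 ± 0.04 (SE), edgeR adjusted p = 0.229). The HCCLM3 groups were well apart and the Huh7 groups overlapped. POR (chr7:75899200-75986855) had 224, 229 and 222 CPM in HCCLM3 with si-circASH2 and 195, 194 and 185 CPM with si-NC (log2 fold change 0.23 ± 0.04 (SE), edgeR adjusted p = 3.49e-05). In Huh7 POR had 116, 112 and 112 CPM with si-circASH2 and 111, 120.2 and 114 CPM with si-NC, which overlapped (log2 fold change -0.03 ± 0.04 (SE), edgeR adjusted p = 0.673). The differences between the effects passed at 0.33 ± 0.06 (SE), edgeR adjusted p = 0.000292 for EPHX1, and at 0.26 ± 0.05 (SE), edgeR adjusted p = 0.00102 for POR.

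AOX1, which oxidises aldehydes and nitrogen heterocycles (chr2:200585868-200677064), had 2.44, 1.96 and 1.58 CPM in HCCLM3 with si-circASH2 and 0.807, 0.910 and 1.18 CPM with si-NC (log2 fold change 1.04 ± 0.21 (SE), edgeR adjusted p = 0.000449). In Huh7 AOX1 had 8.23, 10.04 and 9.31 CPM with si-circASH2 and 7.05, 8.68 and 7.51 CPM with si-NC (log2 fold change 0.25 ± 0.14 (SE), edgeR adjusted p = 0.213). The groups were apart in HCCLM3 and overlapped in Huh7. The difference between the effects was 0.79 ± 0.25 (SE), edgeR adjusted p = 0.0284, a call lost without Huh7 si-NC library 2 (adjusted p = 0.0779), Huh7 si-circASH2 library 1 (0.0662), HCCLM3 si-NC library 1 (0.0981) or 2 (0.0679) or HCCLM3 si-circASH2 library 1 (0.115), and with limma on log2(FPKM + 1) (0.666). The HCCLM3 call itself was lost with limma on log2(FPKM + 1) over all genes above 0 (0.0531). NNMT was at 0 in all 6 HCCLM3 libraries and had 1.73, 1.66 and 2.17 CPM in Huh7 with si-circASH2 and 1.57, 2.24 and 3.54 CPM with si-NC, which overlapped.

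Of the 2 alcohol dehydrogenases tested, ADH6 rose in HCCLM3 (chr4:99202638-99219537). It had 1.53, 1.13 and 1.81 CPM with si-circASH2 and 0.706, 1.02 and 0.687 CPM with si-NC (log2 fold change 0.89 ± 0.21 (SE), edgeR adjusted p = 0.00218). In Huh7 ADH6 had 21.8, 21.2 and 19.4 CPM with si-circASH2 and 20.04, 22.8 and 19.9 CPM with si-NC (log2 fold change -0.01 ± 0.10 (SE), edgeR adjusted p = 0.980). The HCCLM3 groups did not overlap, the Huh7 groups did, and the level with si-circASH2 in HCCLM3 remained far under that of Huh7. The effects on ADH6 differed between the lines by 0.90 ± 0.23 (SE), edgeR adjusted p = 0.00689. Limma on log2(FPKM + 1) made neither call (adjusted p = 0.0911 for the rise and 0.226 for the difference). ADH4 was at 0 in HCCLM3 and had 14, 14 and 17 counts in Huh7 with si-circASH2 and 16, 23 and 12 with si-NC.

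**Figure D4:**
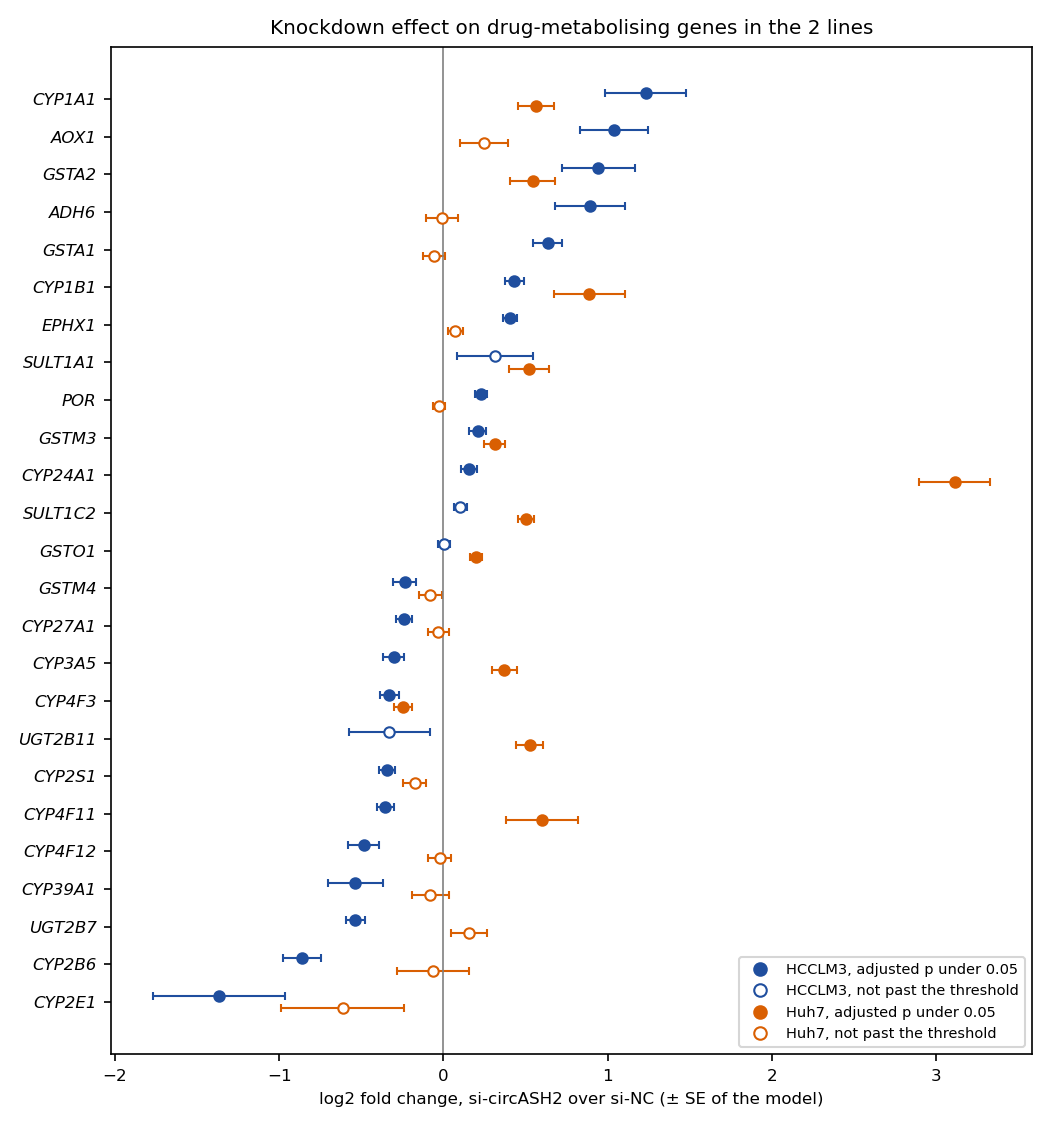
Log2 fold change of si-circASH2 over si-NC with the SE of the model for the 25 genes that passed in at least 1 line and have a fitted fold change in both, HCCLM3 (blue) above Huh7 (orange), filled where the edgeR adjusted p is under 0.05; SULT1E1, SULT2A1 and UGT2B4, with a group at 0 counts, are not drawn. CYP24A1 stands alone at 3.11 in Huh7, and CYP3A5 and CYP4F11 lie on opposite sides of 0 in the lines. The CYP4F11 groups overlapped in Huh7, and that call was lost under several alternatives.

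Genes of the same pathways outside the 50 were counted from 4 lists. Of 10 other P450s tested, 1 was higher and 3 lower in HCCLM3 with si-circASH2, and 2 were higher and 1 lower in Huh7. These calls were 40% of the list in HCCLM3 and 30% in Huh7, where 30.6% and 31.4% of all features passed. CYP26B1, which degrades retinoic acid, averaged 10.6 ± 0.296 CPM in HCCLM3 with si-circASH2 and 16.1 ± 2.00 CPM with si-NC (log2 fold change -0.61 ± 0.10 (SE), edgeR adjusted p = 4.6e-05). CYP27B1, which makes the hormonal form of vitamin D, averaged 1.07 ± 0.0792 CPM in HCCLM3 with si-circASH2 and 1.90 ± 0.253 CPM with si-NC (log2 fold change -0.82 ± 0.26 (SE), edgeR adjusted p = 0.0207). CYP51A1 of cholesterol synthesis was lower in both lines (-0.60 in HCCLM3 and -0.30 in Huh7), TBXAS1 was higher in HCCLM3 (0.38), and CYP20A1 and the steroid hydroxylase CYP21A2 were higher in Huh7 (0.28 and 1.67), where CYP21A2 averaged 1.06 ± 0.179 CPM with si-circASH2 and 0.330 ± 0.0553 CPM with si-NC. CYP21A2 has a close pseudogene, and SULT1A2 is a close copy of SULT1A1, so the counts of both are uncertain.

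Of 33 other conjugating enzymes tested, 2 were higher and 6 lower in HCCLM3 with si-circASH2, and 6 were higher and 0 lower in Huh7, while GSTT1 and GSTT2 were not analysed here. The share called was 24.2% in HCCLM3 and 18.2% in Huh7, below the 30.6% and 31.4% of all features. SULT1C4, a neighbour of SULT1C2 in the same gene family, averaged 0.480 ± 0.184 CPM in HCCLM3 with si-circASH2 and 2.72 ± 0.415 CPM with si-NC (log2 fold change -2.49 ± 0.21 (SE), edgeR adjusted p = 2.2e-09), and 44.2 ± 2.32 CPM in Huh7 with si-circASH2 and 32.1 ± 1.54 CPM with si-NC (log2 fold change 0.46 ± 0.08 (SE), edgeR adjusted p = 4.47e-05). It moved in opposite directions, with a difference between the effects of -2.95 ± 0.22 (SE), edgeR adjusted p = 1.22e-09. PAPSS2, which makes the sulfate donor of the sulfotransferases, averaged 84.1 ± 3.03 CPM in HCCLM3 with si-circASH2 and 79.3 ± 1.07 CPM with si-NC (log2 fold change 0.08 ± 0.04 (SE), edgeR adjusted p = 0.160), and 49.4 ± 2.48 CPM in Huh7 with si-circASH2 and 29.9 ± 0.622 CPM with si-NC (log2 fold change 0.72 ± 0.05 (SE), edgeR adjusted p = 7.53e-11). Also higher in Huh7 were GSTK1 (0.21) and SULT1A2 (0.70), and lower in HCCLM3 were the microsomal transferases MGST2 (-0.51) and MGST3 (-0.39) and the thiopurine methyltransferase TPMT (-0.42), all as log2 fold changes.

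Of 22 other oxidases, hydrolases and electron donors tested, 4 were higher and 4 lower in HCCLM3 with si-circASH2, and 2 were higher and 3 lower in Huh7. That is 36.4% called in HCCLM3 and 22.7% in Huh7, beside 30.6% and 31.4% of all features. The carboxylesterase CES1 was higher in both lines (log2 fold change 0.40 ± 0.04 (SE), edgeR adjusted p = 9.5e-09 in HCCLM3, and log2 fold change 0.25 ± 0.05 (SE), edgeR adjusted p = 0.000806 in Huh7), and the fatty aldehyde dehydrogenase ALDH3A2 was lower in both (-0.34 in HCCLM3 and -0.60 in Huh7 on the log2 scale). ALDH3A1 averaged 356 ± 18.6 CPM in HCCLM3 with si-circASH2 and 584 ± 18.7 CPM with si-NC (log2 fold change -0.71 ± 0.06 (SE), edgeR adjusted p = 3.24e-07), and had 0.772 ± 0.343 CPM in Huh7 with si-circASH2 and 1.02 ± 0.230 CPM with si-NC. The mitochondrial outer membrane cytochrome CYB5B was lower in HCCLM3 (-0.31), and ALDH1A1 and ADH5 were lower in Huh7 (-0.14 and -0.13).

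Of 32 regulators of drug and bile acid metabolism tested, 8 were higher and 6 lower in HCCLM3 with si-circASH2, and 6 were higher and 10 lower in Huh7. Calls made up 43.8% of this list in HCCLM3 and 50% in Huh7, beside 30.6% and 31.4% of all features, and the list was not tested. NR1I2, the pregnane receptor that drives CYP3A genes, averaged 5.45 ± 0.497 CPM in HCCLM3 with si-circASH2 and 5.74 ± 0.765 CPM with si-NC (log2 fold change -0.07 ± 0.17 (SE), edgeR adjusted p = 0.812), and 2.85 ± 0.266 CPM in Huh7 with si-circASH2 and 1.23 ± 0.383 CPM with si-NC (log2 fold change 1.21 ± 0.20 (SE), edgeR adjusted p = 6.35e-05). The difference between these effects was -1.28 ± 0.26 (SE), edgeR adjusted p = 0.00100. HNF4A, a master factor of hepatocytes, averaged 91.4 ± 2.06 CPM in HCCLM3 with si-circASH2 and 94.9 ± 2.58 CPM with si-NC (log2 fold change -0.05 ± 0.04 (SE), edgeR adjusted p = 0.330), and 192 ± 6.98 CPM in Huh7 with si-circASH2 and 242 ± 5.12 CPM with si-NC (log2 fold change -0.33 ± 0.04 (SE), edgeR adjusted p = 2.77e-07; SD, n = 3 each). ONECUT1, a hepatocyte factor, averaged 4.52 ± 0.536 CPM in Huh7 with si-circASH2 and 11.9 ± 0.748 CPM with si-NC (log2 fold change -1.39 ± 0.14 (SE), edgeR adjusted p = 4.3e-08). NR0B2, the bile acid responsive repressor SHP, averaged 0.302 ± 0.0548 CPM in HCCLM3 with si-circASH2 and 0.883 ± 0.263 CPM with si-NC (log2 fold change -1.54 ± 0.32 (SE), edgeR adjusted p = 0.000607), and CEBPB (0.42) and the oxysterol receptor NR1H3 (0.49) rose there. NR1I3, the receptor CAR known for driving CYP2B6, passed in neither line, at 0.157 ± 0.0520 CPM in HCCLM3 with si-circASH2 and 0.0677 ± 0.0587 CPM with si-NC, and 0.514 ± 0.193 CPM in Huh7 with si-circASH2 and 0.845 ± 0.291 CPM with si-NC.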

How the data were processed

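The 12 libraries (HCCLM3 and Huh7, each with si-circASH2 or si-NC, 3 each) were grouped by their labels. Per the file headers the authors deposited read counts per gene and FPKM for the same genes. Aligner, counting tool, strand and annotation: none is stated in the sources used here, and the submitters' processing notes list hg38, GRCm38 and mm10 without a role. Among the counts, 1938 values equal 1, 6826 equal 2 and 4777 equal 3, so the lowest counts are uncertain. Replicate pairs differed beyond sampling noise (chi-square per degree of freedom 3.89 to 8.53). That check does not measure the quality of a library, and all libraries were kept.

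From the deposited counts, edgeR 4.0.16 in R 4.3.3 fitted 1 coefficient per group (filterByExpr with a minimum count of 10, TMM, robust quasi-likelihood, 8 residual degrees of freedom, common biological coefficient of variation 5.65%). Benjamini and Hochberg adjustment ran over all 16946 features, with a threshold of 0.05. Each SE was obtained as the size of the log2 fold change over the square root of F. Errors beside CPM or FPKM are the SD of 3 libraries, and values of a group follow replicates 1 to 3. Alternatives were RLE and upper quartile scaling, no filter, DESeq2 1.42.0, each line fitted on its own, the replicate number as a block, limma 3.58.1 on the log2 of FPKM plus a pseudocount of 1 or 0.1, and leaving out each library.

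The genes and lists were chosen with earlier results of these data known. Values of all libraries are given for up to 12 genes per comparison with the largest changes past the threshold and at least 1 CPM (for the knockdown, also without overlap of the groups), and up to 4 genes with the smallest p stand for each other list, with AHR, NR1I2, NR1I3, HNF4A and POR always named. Other values were added where a gene was low or a call changed. For genes chosen by lack of overlap, that lack follows from the choice. Gene positions are from GENCODE 29 (GRCh38), matched by symbol. Promoters are from RefSeq (GRCh38.p14), and motifs were searched as exact letters on both strands. Shared 50-base stretches were counted between 1 transcript of a gene and all transcripts of other genes.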

Additional observations from a re-analysis of the deposited data

Results flagged for a closer look

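The knockdown effect differed between HCCLM3 and Huh7 (HCCLM3 minus Huh7, edgeR interaction, adjusted p under 0.05) for 15 of the 45 genes tested, and 20.9% of all features differed by the same test. Effects that were higher in HCCLM3 were those on ADH6 (0.90 on the log2 scale), AOX1 (0.79), GSTA1 (0.69), EPHX1 (0.33) and POR (0.26). That on SULT2A1 was 5.23, a fitted value that depends on the prior count and is no bound, since HCCLM3 had 12 counts with si-circASH2 and 0 with si-NC. Effects that were lower in HCCLM3 were those on CYP24A1 (-2.96), CYP4F11 (-0.95), UGT2B11 (-0.86), CYP2B6 (-0.80), UGT2B7 (-0.69), CYP3A5 (-0.67), CYP4F12 (-0.46), SULT1C2 (-0.40) and GSTO1 (-0.19).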

How the results depend on the processing

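Counts of genes called stayed within 1.5 times under every alternative run. Those that kept all libraries gave 18 to 23 calls in HCCLM3, 12 to 15 in Huh7, 13 to 17 for the difference and 40 to 44 between the lines. Leaving out 1 library gave 19 to 21 calls in HCCLM3 (22 with all), 13 to 15 in Huh7 (14), 12 to 16 for the difference (15) and 40 to 42 between the lines (41). Of the single calls, 13 of 22, 10 of 14, 9 of 15 and 39 of 41 held under all alternatives. Of the calls, only GSTM3 in HCCLM3 changed direction, to -0.067 with limma on log2(FPKM + 1), over the same or all genes, and -0.070 on log2(FPKM + 0.1), and the cause was not tested. The difference on CYP1B1, not called with edgeR (-0.46), was 0.30 and passed with limma on log2(FPKM + 1), over the same genes (adjusted p = 0.0194) or all genes above 0 (0.0204), and its cause was not tested. In Huh7 CYP1B1 was at 0.159 and 0.0868 FPKM, and its log2 fold change there was 0.09 with that pseudocount of 1. AOX1 and ADH6 in HCCLM3 were also under 1 FPKM. With the pseudocount of 1 their log2 fold changes there were 0.21 and 0.22. Whether replicate numbers pair libraries is not labelled, and correlations did not settle it. The correlation of same-numbered libraries was 0.01, 0.09 and 0.08 in HCCLM3 and -0.03, 0.06 and 0.13 in Huh7. Libraries of different numbers gave between -0.13 and 0.06 in each line. The replicate block gave 22, 14, 17 and 40 calls, gaining CYP1A1 (adjusted p = 0.00123) and CYP27A1 (0.0444) for the difference and CYP2S1 in Huh7 (0.0450), and losing CYP4F11 in Huh7 (0.0537) and CYP4F2 between the lines (0.0528). Genes under about 1 CPM rest on few reads.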
